A study of Bubalus bubalis with 12 samples.

Results

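The untreated corpus luteum (CL) of the buffalo cow on day 11 of the estrous cycle was examined on its own, from the 4 control arrays of a series of 12. These were the arrays whose labels give the control group, no treatment and collection at 0 h, with 1 array per animal and animals known to cycle normally. The other 8 arrays, from cows given the prostaglandin F2α (PGF2α) analogue cloprostenol, were not used here. RNA came from the whole frozen gland, so that every cell type of the CL contributed, and was hybridised to the GeneChip Bovine Genome Array, and the signal of each probe set is given in log2 units, in which a difference of 1 is a 2-fold difference.

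The CL forms from the wall of the ovulated follicle and secretes progesterone, which prepares the uterus for pregnancy and holds back the next ovulation. Its large luteal cells derive from granulosa cells and its small luteal cells from theca cells, and both are embedded in a dense network of capillaries with fibroblasts and immune cells. In the middle of the cycle the gland is kept active by luteinizing hormone, and in cattle and buffalo PGF2α from the uterus later ends its life.

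With 1 group there is no contrast and no test, and all results are levels and the spread among the 4 animals. The spread of a gene is given as its range, the highest minus the lowest of the 4 arrays, and no technical repeat is given that would separate the spread between animals from that between arrays. Values per array are listed for control replicates 1, 2, 3 and 4 in that order, with 1 probe set for each of 9155 genes. The array carries cattle probes and the RNA was from buffalo, so the order of genes by level is an order of array signal and not of transcript abundance.

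The 4 arrays were not equally far from each other. Medians over 24016 probe sets were 7.12, 7.17, 7.14 and 7.12. Control replicates 1 and 4 were very alike, with r = 0.997 across probe sets and 6 probe sets more than 2-fold apart, and the other pairs had r between 0.982 and 0.990 and 310 to 802 such probe sets. The labels count both as animals and they were kept as 2 samples. The hybridisation spike-ins had means over 18 probe sets of 11.36, 10.35, 10.93 and 10.94. They are added to each sample after labelling, so they cannot tell whether 2 arrays came from separate animals. Control replicate 3 stood apart most and held 47.4% of the squared deviation from the gene means, against 21.7% for replicate 2, 15.2% for replicate 1 and 15.7% for replicate 4. The difference between the 3' and 5' probe sets of actin, a measure of RNA integrity, was 0.96, 2.07, 1.67 and 0.91, so it was larger in replicates 2 and 3, and that of GAPDH was 0.12, 0.25, 0.11 and 0.05. The part of RNA integrity in the results that follow was not tested.

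The markers of steroidogenic luteal cells were among the brightest probe sets of every array. STAR, which carries cholesterol to the inner mitochondrial membrane, had signals of 14.91, 14.74, 14.71 and 14.82, and 99.9% of the genes had a lower mean. HSD3B1, which converts pregnenolone to progesterone, had 14.91, 14.86, 14.76 and 14.92. CYP11A1, the side-chain cleavage enzyme that makes pregnenolone from cholesterol, had 14.35, 14.25, 14.15 and 14.36. All 3 were lowest in replicate 3, with ranges of 0.20, 0.16 and 0.21. The median range was 0.35 over all genes and 0.08 over the 30 brightest genes. Differences near the top of the scale can be compressed, and the part of this in the small ranges was not tested. The defining markers of the labelled tissue were thus bright in each of the 4 arrays.

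The 30 brightest genes had means between 14.47 and 15.21 and ranges of only 0.02 to 0.26 (median 0.08). Of these, 17 were in the list of ribosomal proteins and elongation factors, which also holds the translationally controlled protein TPT1, and EEF1A1 led them (15.02 ± 0.03; mean ± SD, n = 4 here and below). The first in order was APOA1 (15.21 ± 0.03), the main protein of high density lipoprotein, the particle from which luteal cells of ruminants take much of their cholesterol. TIMP2, an inhibitor of matrix metalloproteinases, was next (15.14 ± 0.01). It had a range of 0.02 in this probe set, near the top of the scale where differences can be compressed. The other 2 TIMP2 probe sets had ranges of 0.24 and 0.38. OXT, the precursor of oxytocin, which ruminant luteal cells secrete in large amounts, had signals of 14.89, 15.12, 14.93 and 14.87, the fourth highest mean. The spread of OXT was the widest among the 30, with replicate 2 above the other arrays.

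Several of the remaining places were held by genes of luteal function. STAR, HSD3B1 and FDX1, the ferredoxin that passes electrons to CYP11A1 (14.48 ± 0.07), stood for progesterone synthesis. HMGCS1, an early enzyme of cholesterol synthesis (14.77 ± 0.07), stood beside APOA1 for cholesterol supply, and MSMO1, which acts late in the same pathway, reached 14.66 ± 0.01. SCARB1, the receptor for high density lipoprotein, lay just outside at 14.47 ± 0.04, as the next gene in order. TMSB10, an actin-binding peptide, and FTH1, the ferritin heavy chain, were also among the 30, as were GAPDH, the integrin subunit ITGB5 and the methyltransferase BUD23. No gene of the interferon, antigen presentation, cytokine or immune cell lists was among them.

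**Figure D1:**
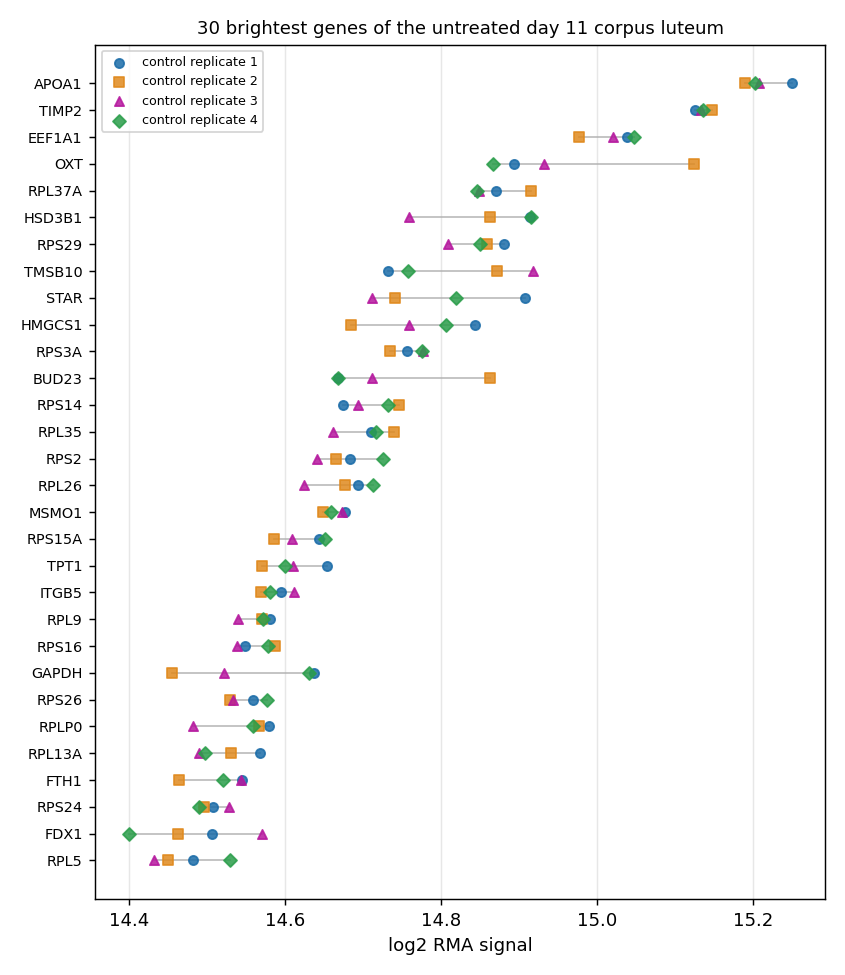
Log2 RMA signal (horizontal axis) of the 30 genes with the highest mean over the 4 control arrays, 1 row per gene from the highest mean down, with 1 point per array and a grey line for the range. All points lie between 14.4 and 15.3, and OXT, with a range of 0.26, spreads most.

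Among 13 measured genes of progesterone synthesis 1 had a range over 1 log2 unit, where 580 of all 9155 genes (6.34%) and 1221 of all 24016 probe sets (5.08%) did, and the median range of the list was 0.26. The exception was NR5A1, the nuclear receptor that drives transcription of steroidogenic genes, with 10.45, 10.23, 9.22 and 10.40 and a low value in replicate 3 alone. Of its 4 probe sets 2 had a range over 1. Its relative NR5A2 had 10.39, 9.53, 9.77 and 10.15, with replicates 2 and 3 the lower pair. AKR1B1, an aldo-keto reductase also known as a PGF synthase in cattle, was near 11.05 in replicates 1, 3 and 4 and 11.26 in replicate 2. Of the 13 genes 6 were lowest in replicate 3, which is near the share of 37.7% over all genes. The mean over the list was 10.73, 10.64, 10.52 and 10.75.

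Cholesterol supply (23 genes) had a median range of 0.41, against 0.35 over all genes. Of its genes 2 (8.70%) passed a range of 1, where 6.34% of all genes did. INSIG1, which retains the sterol sensor in the endoplasmic reticulum, had 10.94, 12.02, 12.15 and 10.78, and DHCR7, the last enzyme of one branch of cholesterol synthesis, had 11.21, 12.39, 12.24 and 11.06. Both were higher in replicates 2 and 3 than in replicates 1 and 4 with no overlap. The other synthesis genes did not share this order, as SQLE had 13.71, 13.41, 13.57 and 13.62 and CYP51A1 12.85, 12.56, 12.83 and 12.88. NPC2, which exports cholesterol from lysosomes, was lowest in replicate 2 (11.44, against 11.91 to 12.17 in the other 3).

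Receptors for the hormones that act on the CL differed in how steady they were. LHCGR, the receptor for luteinizing hormone, had signals of 12.02, 11.23, 10.28 and 12.19, a range of 1.91 or 3.76-fold. Replicates 1 and 4 were high, replicate 2 was lower and replicate 3 was lowest, and replicate 3 was the lowest in each of the 3 LHCGR probe sets. PTGFR, the receptor through which PGF2α acts on luteal cells, had 13.66, 13.45, 13.42 and 13.77 in its brightest probe set, a range of 0.35. The other 2 PTGFR probe sets were wider apart, with 12.10, 10.69, 11.48 and 12.15 in one and 11.92, 10.64, 11.43 and 11.82 in the other, and replicate 2 was the lowest array in both. GHR, the growth hormone receptor, was highest in replicate 3 (10.02) and lowest in replicate 4 (8.50) in its brightest probe set. Of its 11 probe sets only this 1 had a range over 1, and the others were dim (means of 3.79 to 5.94). Replicate 3 was the highest array in 5 of the 11 and the lowest in 4. PTGER4, a receptor for prostaglandin E2, was at 8.61 in replicate 3, against 6.98 to 7.07 in the other 3. In all, 4 of 19 receptors passed a range of 1, where 6.34% of all genes did. PRLR, the prolactin receptor, was the other one (7.22, 6.20, 6.62 and 6.57).

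Secreted factors of the gland varied more, with 6 of 19 past a range of 1, where 6.34% of all genes were. Their list had a median range of 0.75, against 0.35 over all genes. VEGFA, which maintains luteal capillaries, was steady at 11.92 ± 0.15, and so was IGF1 at 8.57 ± 0.14. INHA, the inhibin alpha subunit, was higher in replicate 2 (10.58) than in the other 3 arrays (9.65 to 9.92), while FST, the activin-binding protein follistatin, was lowest there (10.41, against 11.21 to 11.47). EDN1, the vasoconstrictor endothelin-1, had 7.92, 9.40, 9.59 and 8.01, and the matrix protein CCN2 reached 13.16 in replicate 2 and 13.04 in replicate 3, with a range of 1.23. In both, replicates 2 and 3 formed the high pair. AREG, an epidermal growth factor receptor ligand, was at 7.36 in replicate 3 and between 4.72 and 5.54 in the others.

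Prostaglandin enzymes showed the same 2 kinds of array. PTGES, which makes prostaglandin E2, had 7.42, 9.28, 9.48 and 7.54, a range of 4.16-fold. HPGD, which breaks prostaglandins down, ran the other way with 8.23, 7.25, 6.61 and 8.46. PTGS2, the inducible cyclooxygenase, stayed between 7.15 and 7.60. Of the 9 measured genes of prostaglandin synthesis and breakdown PTGES and HPGD alone passed a range of 1, where 6.34% of all genes did. In both, replicate 3 was the extreme array, with replicate 2 next to it.

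Genes of theca and follicle origin included the gene farthest below the other arrays in any single one. INSL3, the insulin-like peptide of theca and small luteal cells, had 13.32, 13.18, 9.48 and 13.45, so that replicate 3 lay 3.70 log2 units below the lowest of the other 3. CYP17A1, the theca enzyme that leads from progestins to androgens, was also low in replicate 3 (6.47, against 7.62 to 7.99). CYP19A1, the aromatase of granulosa cells, had 8.51, 8.20, 8.06 and 8.66, a range of 0.60. Among 9 measured genes of this list only INSL3 and CYP17A1 passed a range of 1, where 6.34% of all genes did. SERPINE2, a protease inhibitor of granulosa cells, stayed at 14.01 ± 0.09. In whole tissue, fewer cells of a type and less RNA per cell cannot be told apart.

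Among all genes the spread was small. The median range was 0.35, and 118 genes had a range over 2 log2 units (1.29% of 9155). The share of genes past a range of 1 was 4.64% among the 1831 dimmest genes, 8.57% among the 1831 of middle brightness and 5.46% among the 1831 brightest, so the spread did not gather among dim probe sets. Of 27 named genes with a range over 1 and several probe sets, 15 had a range over 1 in every one, and of 38 such genes with a smaller range, 4 (PTGFR, B2M, BMPR1A and GSTA2) had a range over 1 in another probe set. Replicate 3 decided much of it. Without it 183 of the same genes were past a range of 1 (2.00%), and the median range was 0.24. Of the 580 genes, 283 (48.8%) had their widest gap between replicate 3 above and the other 3 arrays below, where 12.1% of all genes had it there.

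**Figure D2:**
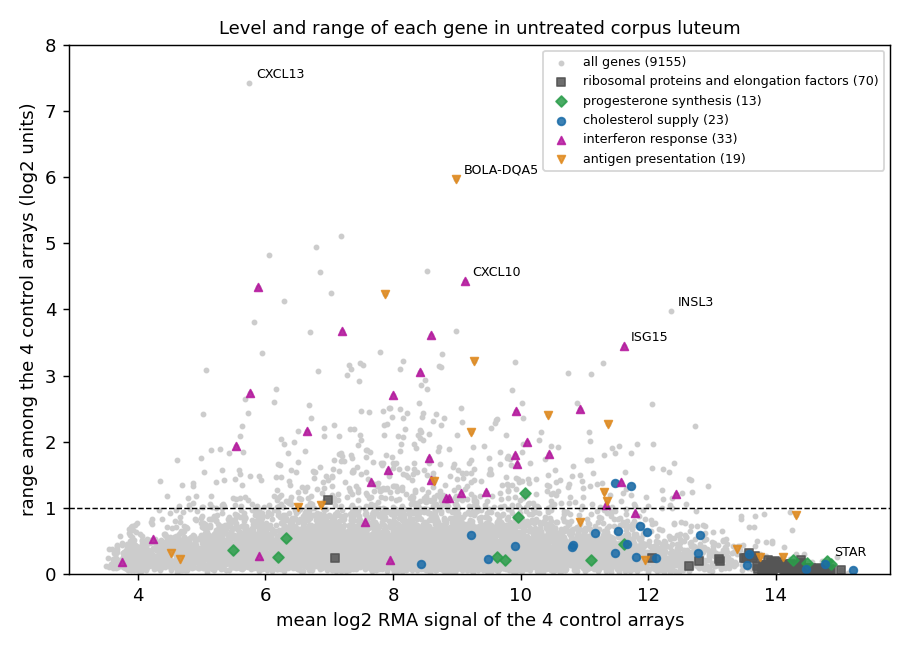
Range among the 4 control arrays in log2 units (vertical axis) against the mean log2 RMA signal (horizontal axis), 1 point per gene, with 5 gene lists in colour, their measured members in brackets and a dashed line at 1. Most ribosomal genes lie at the right near 0, and 27 of 33 interferon response genes lie above the line, up to 4.42 for CXCL10.

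The gene lists fell into a clear order of spread. Ribosomal proteins and elongation factors were the steadiest (70 genes, median range 0.10), and oxidative phosphorylation, which supplies the energy of the mitochondria, had 0 of 53 genes past a range of 1 (median range 0.27). Proliferation genes also had 0 of 23 (median 0.28), and hemoglobin and other red cell genes 0 of 8, where 6.34% of all genes passed it. In lists this short a count of 0 is near that share. The red cell genes were also dim (median level 5.67, against 8.35 over all genes). The median range was 0.347 over the 1831 dimmest genes and 0.353 over all genes. Whether dim signal narrowed the red cell ranges was not tested. At the other end stood monocytes and macrophages (14 genes, median range 1.67), interferon response (33 genes, 1.66) and antigen presentation (19 genes, 1.04). These were the 3 lists of 29 whose median range was over 1, and without replicate 3 the 3 medians were 0.26, 0.31 and 0.33.

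**Figure D3:**
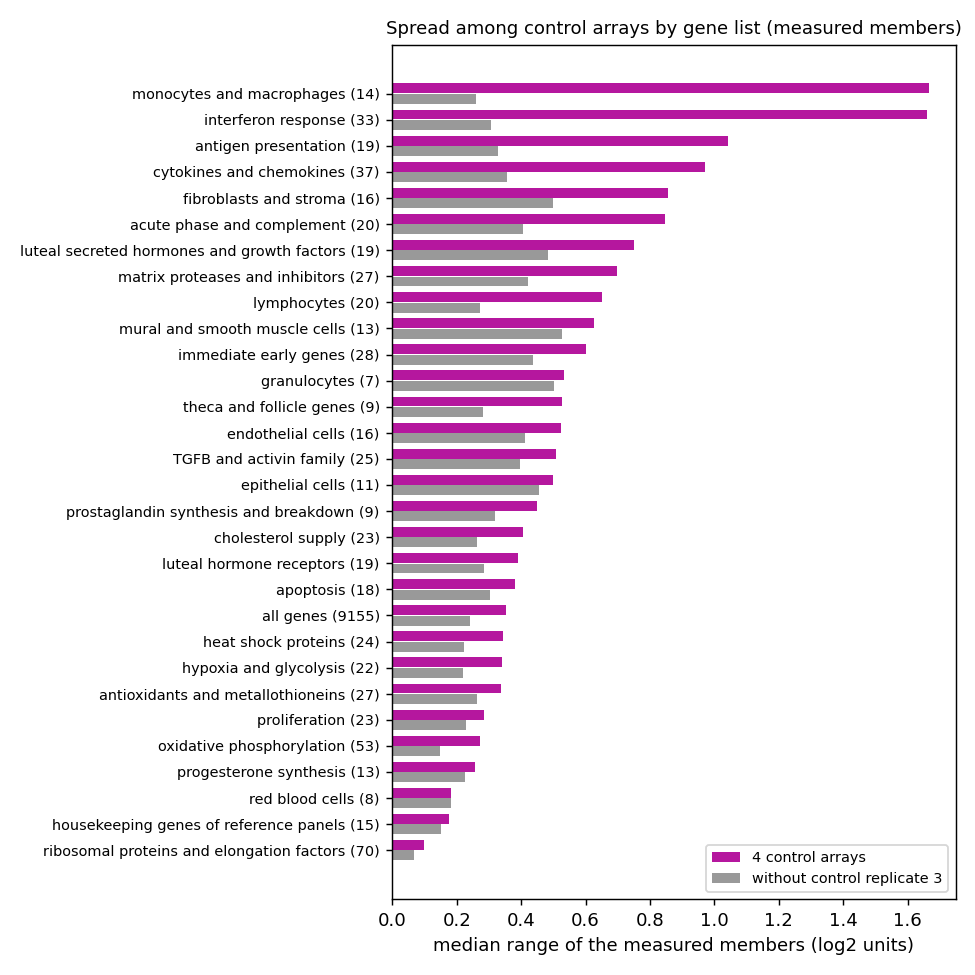
Median range of the measured members of each of 29 gene lists and of all genes, in log2 units from 0, over the 4 control arrays (purple) and without control replicate 3 (grey), with the number of measured members in brackets. The monocyte, interferon, antigen and cytokine lists fall to between 0.26 and 0.36 without replicate 3, and the ribosomal list is lowest in both.

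Replicate 3 lay more than 1 log2 unit above all other arrays for 173 genes (1.89% of 9155) and below them for 24 (0.262%). Of the 173 genes, 57 were in 1 of 6 immune lists (interferon response, antigen presentation, cytokines and chemokines, monocytes and macrophages, lymphocytes, acute phase and complement), which held 143 measured genes together. Where a gene of the 173 had more than 1 probe set, replicate 3 was the highest array in every one of them for 41 of 54 genes. The widest was CXCL13, a chemokine that draws B cells, with 3.81, 4.12, 11.23 and 3.83. In 3 animals it was at or close to the level of the bacterial trp probe sets, which have no target in the sample (3.64 to 4.04), so its fold change was not measured, and in replicate 3 it was above the median gene level of 8.35.

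Chemokines that recruit monocytes and T cells followed. CCL8 had 5.76, 6.15, 10.87 and 5.93, and CCL2, the classical monocyte chemokine, had 10.13, 9.85, 12.89 and 10.07. CXCL10 and CXCL11, ligands of the T cell receptor CXCR3 that interferon induces, had 8.43, 7.68, 12.11 and 8.30 and 4.78, 4.68, 9.01 and 5.04. The neutrophil chemokine CXCL5 had 4.45, 5.45, 9.26 and 5.04. In each of these replicate 3 was high alone, and 31 of 37 measured cytokine and chemokine genes were highest there, where 24.1% of all genes were. The adhesion molecules of inflamed endothelium differed as well, with SELP at 6.53, 7.05, 9.69 and 6.82 and VCAM1 at 11.70, 10.96, 12.93 and 11.72, while TNF stayed between 6.33 and 6.81 and IL10 between 6.38 and 6.61.

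The interferon response was the most uniform group, with 32 of 33 measured genes highest in replicate 3 and 21 of them more than 1 above the other arrays. RSAD2, the antiviral protein viperin, had 7.63, 7.67, 11.25 and 7.82. MX2 had 6.14, 6.39, 9.81 and 6.46, and ISG15, a ubiquitin-like protein joined to others during the response, had 11.07, 10.51, 13.95 and 10.95. The mean over the list was 8.19, 8.09, 9.86 and 8.23. Replicates 1, 2 and 4 differed little, as their median range for these genes was 0.31 and none passed 1. OASL was the member not highest in replicate 3 (5.78, 6.05, 5.82 and 5.92).

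Antigen presentation was high in the same array, with 17 of 19 genes highest in replicate 3. BOLA-DQA5 and BOLA-DQB, chains of a cattle major histocompatibility complex (MHC) class II molecule, had 8.88, 6.12, 12.09 and 8.88 and 7.47, 6.19, 10.42 and 7.38, so that replicate 2 was the lowest array and replicates 1 and 4 lay between. BOLA-DQA1 had the same order (9.10, 7.85, 11.07 and 9.06). BOLA-DRA, a class II chain of another pair, was high in replicate 3 without a low value in replicate 2 (9.86, 10.03, 12.11 and 9.70). Class I and its light chain varied less in the probe sets used, as BOLA had 14.04, 14.04, 14.29 and 14.10 and B2M 14.21, 13.96, 14.86 and 14.23. Both lie near the top of the scale, where differences can be compressed. Replicate 3 was the highest array in all 3 B2M probe sets, and the dimmest of them had a range of 1.20. These MHC genes are close relatives of each other and a probe set may bind more than 1 of them.

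Markers of macrophages were highest in replicate 3 in 13 of 14 measured genes, where 24.1% of all genes were. AIF1, a calcium-binding protein of macrophages, had 9.48, 9.28, 11.86 and 9.43, and the scavenger receptor MSR1 had 8.51, 8.66, 10.80 and 8.29. C1QA, a complement subunit made by macrophages, had 9.09, 8.92, 11.27 and 9.21. Their list mean was 9.42 in replicate 3, against 7.93 to 8.04 in the others, and the exception was ITGAM, at 3.90 to 4.24 in all arrays and thus about the level of the trp probe sets. Lymphocyte markers moved less (14 of 20 highest in replicate 3, list mean 6.64, 6.69, 7.22 and 6.72), with CCL5 at 8.11, 7.67, 9.82 and 8.17 and the antibody joining chain JCHAIN at 7.52, 7.88, 9.20 and 7.60. The T cell receptor chain CD3E differed little (7.31, 7.65, 7.93 and 7.35), and CD79A of B cells stayed between 5.60 and 5.68. Granulocyte genes had no common direction, and S100A8 was lowest in replicate 3 (12.15, against 12.43 to 12.93). S100A12, the 1 gene of the 7 measured that passed a range of 1, was high in replicates 2 and 3 (9.64, 11.49, 11.21 and 9.55). Among 16 endothelial genes PLVAP, a protein of capillary fenestrae, alone passed a range of 1 (5.82, 7.68, 6.89 and 6.11). This is near the share of 6.34% over all genes, and the other PLVAP probe set had a range of 0.74. PECAM1 had 9.85, 10.25, 10.57 and 9.76. How much a difference in the number of immune cells contributed to the 173 genes was not tested.

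Acute phase, apoptosis and matrix genes were mixed, with 9 of 20, 10 of 18 and 12 of 27 highest in replicate 3 and 5, 2 and 3 lowest there. Of all genes 24.1% were highest and 37.7% lowest in that array. The complement component C4A was low in replicate 3 (12.90, 13.08, 11.84 and 12.91). SAA3, an acute phase protein made outside the liver, had 7.06, 8.28, 11.64 and 7.14, and PTX3, a soluble pattern receptor, had 9.16, 9.12, 11.91 and 9.28. BIRC3, an inhibitor of apoptosis under the control of NF-κB, had 8.73, 8.82, 10.65 and 8.79, and CFLAR, which blocks caspase-8, had 8.50, 7.95, 9.88 and 8.55. BCL2, which protects cells from apoptosis, lay between 11.61 and 11.66 in its brightest probe set, and its other 4 probe sets had ranges of 0.29 to 0.48. CD44, the hyaluronan receptor, had 6.37, 7.27, 9.39 and 6.23, and the matrix proteoglycan VCAN had 9.13, 9.92, 10.89 and 9.19, so that replicate 2 was second in both.

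**Figure D4:**
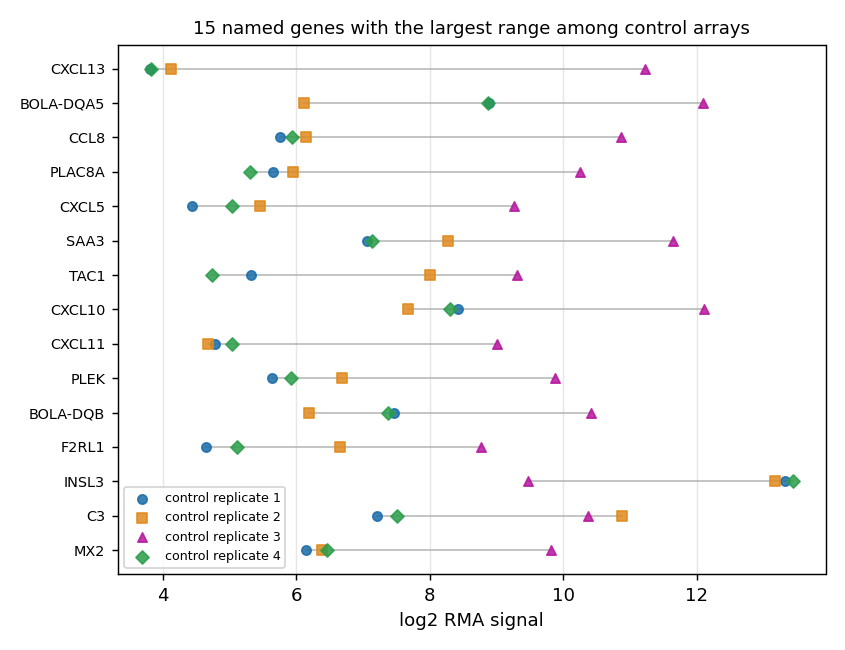
Log2 RMA signal (horizontal axis) of the 15 genes with the largest range among the 4 control arrays, uncharacterised loci left out, with 1 point per array and a grey line for the range. Replicate 3 is the highest point in 13 genes, the lowest in INSL3 (9.48) and second to replicate 2 in C3 (10.37 and 10.88).

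The 24 genes that were low in replicate 3 were of a different kind. After INSL3 came CRABP2, a carrier of retinoic acid (10.21, 9.69, 8.10 and 10.39), the endothelial receptor PLXDC1 (8.82, 9.18, 7.16 and 8.71) and EPHX1, an epoxide hydrolase (11.32, 11.60, 9.87 and 11.41). The matrix proteoglycan OGN (10.93, 10.77, 9.19 and 10.63), the phospholipase PLA2G1B (11.31, 11.65, 9.92 and 11.29) and GSTM3, a glutathione transferase (12.48, 12.20, 10.97 and 12.57), were low in the same array. NR5A1, CYP17A1, FOS, NR4A2 and DUSP1 were also among the 24. NR0B1, the nuclear receptor DAX1 that binds NR5A1, was named after its values were seen and had 8.84, 8.03, 6.85 and 8.93. For 5 of 7 of these genes that had more than 1 probe set replicate 3 was the lowest array in every one. Oxidative phosphorylation showed small shifts in 2 arrays, with list means of 12.22, 12.31, 12.11 and 12.21. Of its 53 genes, 36 were lowest in replicate 3, where 37.7% of all genes were. In replicate 2, 32 were highest, where 33.8% of all genes were. Of 70 ribosomal and elongation factor genes, 36 were lowest in replicate 3 and 33 highest in replicate 2.

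Immediate early genes, which cells switch on within minutes of a stimulus, had a median level of 10.57 in these untreated glands and split in direction. FOS had 12.30, 11.81, 10.49 and 12.31, and EGR1 had 12.69, 11.97, 11.47 and 12.75. The orphan receptors NR4A1 (11.73, 11.01, 10.37 and 11.71) and NR4A2 (9.55, 8.48, 7.13 and 9.54) and the phosphatase DUSP1 (12.86, 12.47, 11.31 and 12.99) had the same order, with replicates 1 and 4 high, replicate 2 lower and replicate 3 lowest, as in LHCGR. ATF3, a stress-induced transcription factor, ran the other way (6.34, 7.05, 9.35 and 6.35), as did MYC (9.91, 10.56, 11.17 and 10.04) and the antiproliferative gene BTG1 (12.20, 12.67, 13.26 and 12.23). In all 9 of 28 genes passed a range of 1, where 6.34% of all genes did. Of the 28, 8 had the order of FOS and 9 that of ATF3. Over all 9155 genes the order of FOS held for 16.1% and that of ATF3 for 10.9%, and among the 580 genes past a range of 1 for 14.0% and 36.7%.

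Replicates 2 and 3 together lay more than 1 log2 unit above replicates 1 and 4 for 44 genes (0.481% of 9155) and below them for 16 (0.175%). For the other pairings the count was 0, but both put replicates 1 and 4 on opposite sides. These 2 arrays were more than 2-fold apart for 1 gene only, so that count could not be large and is no comparison for the 44 and 16. The 44 included genes of extracellular matrix, signalling and complement. C3, the central complement component, had 7.21, 10.88, 10.37 and 7.51, and TAC1, the precursor of substance P, had 5.33, 8.01, 9.31 and 4.74. IGFBP3, a carrier of insulin-like growth factors, had 9.74, 12.03, 12.18 and 9.59. GEM, a small GTPase, had 8.51, 10.85, 10.53 and 8.57, and the metallothionein MT1A had 6.97, 8.56, 9.39 and 6.88. Fibronectin (FN1; 12.32, 13.66, 13.43 and 12.33) and thrombospondin 1 (THBS1; 11.58, 13.12, 12.96 and 11.64), abundant matrix proteins, belonged here too. IGFBP3, GEM, FN1 and THBS1 were chosen after their values were seen, as were the examples of the 16 low genes, TRIM6 (8.30, 5.51, 5.22 and 8.25), CRABP1, a further carrier of retinoic acid (13.61, 12.22, 11.44 and 13.68), and transferrin (TF; 12.43, 10.97, 10.49 and 12.26). The actin 3' minus 5' difference was also larger in replicates 2 and 3 (2.07 and 1.67, against 0.96 and 0.91), and its part in these genes was not tested.

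**Figure D5:**
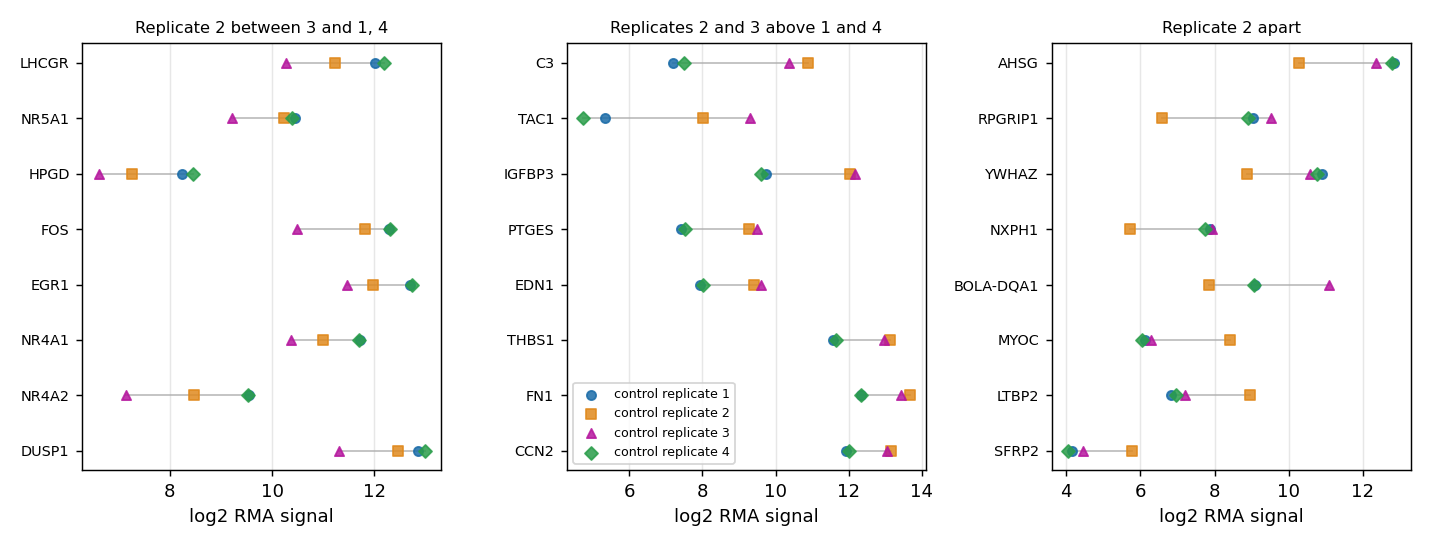
Log2 RMA signal (horizontal axes) of 24 example genes in 3 panels of 8, with 1 point per control array and a grey line for the range, chosen after their values were seen. At left replicate 2 lies between replicate 3 and replicates 1 and 4, in the middle replicates 2 and 3 lie above replicates 1 and 4, and at right replicate 2 lies apart, as in AHSG (10.27, against 12.35 to 12.84).

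Of 16 stromal markers 9 were highest in replicate 2 and 5 in replicate 3, where 33.8% and 24.1% of all genes were. The count for replicate 3 is near that share. Replicate 1 was the lowest array for 11 of the 16, and for 1842 of all 9155 genes. COL1A1, the alpha 1 chain of type I collagen, had 11.99, 13.41, 13.02 and 12.24, and the fibroblast receptor PDGFRA had 7.55, 9.06, 9.80 and 7.42. The other PDGFRA probe sets, which were dimmer, had ranges of 0.34 and 0.48. OGN ran the other way, with its low value in replicate 3 (9.19). The mean over the list was 10.70, 11.32, 11.23 and 10.73. Smooth muscle genes were highest in replicate 2 in 11 of 13 cases, where 33.8% of all genes were, with TAGLN at 9.33, 10.77, 10.29 and 9.31 and the calponin CNN1 at 7.47, 9.26, 8.30 and 7.40. MYH11, the myosin heavy chain of smooth muscle, was high in replicate 2 alone (11.36, against 10.28 to 10.46). Of the 13, 3 were lowest in replicate 3, where 37.7% of all genes were. The list mean was 9.26, 9.88, 9.46 and 9.27. None of the 11 measured genes of the epithelial list passed a range of 1, where 6.34% of all genes did. KRT10, a keratin outside that list, was high in replicate 2 (10.16, against 7.30 to 8.77).

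Replicate 2 alone lay more than 1 log2 unit above the other 3 arrays for 12 genes and below them for 12 (0.131% each). The high ones included MYOC, a secreted glycoprotein (6.12, 8.41, 6.30 and 6.05), LTBP2, a matrix protein of microfibrils (6.84, 8.94, 7.20 and 6.96), and FRZB and SFRP2, secreted antagonists of Wnt signalling (8.43, 9.62, 8.50 and 8.58, and 4.17, 5.77, 4.44 and 4.05). Each of the 3 high genes with more than 1 probe set was highest in replicate 2 in every one. The low ones included AHSG, the plasma protein fetuin-A (12.84, 10.27, 12.35 and 12.78), RPGRIP1 (9.03, 6.57, 9.51 and 8.89), NXPH1 (7.89, 5.73, 7.92 and 7.74) and the class II genes given above. For the low genes the probe sets did not agree. Replicate 2 was the lowest array in every probe set for 0 of 4 such genes, and 4 of the 8 AHSG probe sets had a range over 1 while the smallest range was 0.35.

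YWHAZ, a 14-3-3 protein used as a reference gene in expression studies, was low in replicate 2 (10.91, 8.88, 10.58 and 10.77), a range of 4.08-fold. It was the single gene past a range of 1 among 15 measured genes of reference panels, near the share of 6.34% over all genes. GAPDH (14.64, 14.46, 14.52 and 14.63) and RPLP0 (14.58, 14.57, 14.48 and 14.56) were steady, TBP stayed between 8.75 and 8.87, and ACTB was higher in replicate 2 (12.73, 13.18, 12.94 and 12.66). B2M, also on such panels, had a range of 0.90 with its high value in replicate 3.

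No gene set replicate 1 apart from the other 3 by more than 1 log2 unit, and 1 gene did so for replicate 4 (0.0109%). SERPINA14, the uterine serpin, was low there (6.64, 6.98, 6.87 and 5.43). Its second probe set had 4.64, 6.55, 6.32 and 4.71, so that replicate 1 was the lowest in that one. Replicates 1 and 4 were more than 2-fold apart for 1 gene only, so neither could stand apart for more. With replicate 4 left out, replicate 1 stood apart for 81 genes, and with replicate 1 left out, replicate 4 did for 73. When replicate 3 was left out, the widest ranges among the other 3 animals, passing over 1 uncharacterised locus, were those of C3 (3.67), TAC1 (3.27), the keratin KRT10 (2.86), TRIM6 (2.79) and BOLA-DQA5 (2.77). In each of these replicate 2 was the array that differed from replicates 1 and 4.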

How the data were processed

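Values of 4 control arrays were read from the deposited table, whose log2 values the authors made, per the labels, by the RMA algorithm (robust multichip average). This method removes background, brings the arrays to 1 distribution and combines the probes of each probe set. Differences at low signal are drawn together by it, and those close to saturation can be understated. Its software version, its chip definition and which arrays entered it together: not given in the sources used here. No scanner file was read, so these steps were kept as deposited.

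Of 24128 probe sets 112 controls were left out. A single cattle gene symbol was given by the platform annotation for 13292 of the remaining 24016, several for 86 and none for 10638, and 8219 of the resulting 9155 symbols also stand in the buffalo annotation of RefSeq. The probe set with the highest mean over the 4 control arrays was used for each gene, and 2913 genes had more than 1. With 4 arrays, their number limits the precision.

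Genes were named by rule: the 30 highest means, the 15 largest ranges passing over uncharacterised loci, for each of 29 lists up to 3 largest ranges and 2 highest means, for each array up to 10 genes farthest above and below the other 3 by over 1 log2 unit, and fixed genes of luteal function (STAR, CYP11A1, HSD3B1, LHCGR, PTGFR, OXT, INHA, NR5A1, NR5A2, VEGFA, SCARB1, FDX1, IGF1, CYP17A1 and CYP19A1, with 1 further gene not reported here). Other list members are examples chosen after their values were seen. Members and lists were chosen with earlier results of these data known. Alternatives were leaving out each array, averaging replicates 1 and 4, centring, a repeated quantile normalization, the mean of a gene's probe sets, leaving out the dimmest 40% of probe sets, all probe sets, the SD or a range scaled to genes of like mean in place of the range, and thresholds of 0.5 and 2 log2 units. Python 3.11.15, pandas 2.3.3 and numpy 2.4.6 were used, and the counting steps were tested on simulated data.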

Additional observations from a re-analysis of the deposited data

Results flagged for a closer look

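Single arrays far from the other 3 were sought as a gap to the nearest array that takes up more of the whole range among the 4 than Dixon's critical value. Chance alone would give about 1 in 20 groups, and 7.43% of all genes had such a gap, against 14.2% (27) of the 190 named genes, many of which were named for standing apart. Replicates 1 and 4 were very alike, which leaves fewer than 4 separate values for many genes. No contrast between groups was available.

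Replicate 3 was the high array in 17 named genes. The share of the range was 0.958 for CXCL13, 0.953 for BIRC3 and CTSS, 0.947 for RSAD2, 0.945 for PTGER4, 0.943 for PTX3, 0.925 for CCL8, 0.921 for AIF1, 0.919 for IL2RG, 0.916 for CXCL11, 0.915 for MX2, 0.896 for CXCL16, 0.880 for C1QA, 0.870 for PLAC8A, 0.851 for MSR1, 0.841 for PSMB9 and 0.831 for CXCL10. It was the low array for INSL3 (0.931), C4A (0.856), EPHX1 (0.840) and OGN (0.833).

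Replicate 2 was the high array for NDUFA4 (0.943), AKR1B1 (0.942), MYOC (0.895) and FRZB (0.873), and the low one for NXPH1 (0.918) and YWHAZ (0.838). For NDUFA4 and AKR1B1 the gap itself was small, with 14.59 against 14.38 to 14.39 and 11.26 against 11.04 to 11.05.

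Among means over the members of a list replicate 3 was high for monocytes and macrophages (0.927), cytokines and chemokines (0.925), interferon response (0.923), apoptosis (0.920) and lymphocytes (0.872), and low for theca and follicle genes (0.862).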

How the results depend on the processing

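No paired analysis was possible because the 4 arrays form 1 group and nothing is compared between groups. Under alternatives other than leaving out an array, levels of the 190 named genes moved by less than their spread in 884 of 931 values. Ranges did so in 884 of 931 values, and in 616 of 760 with an array left out. Of the 580 genes past a range of 1, the count lay between 184 and 533 with each array left out in turn (184 without replicate 3, with the brightest probe set chosen anew), and it was 2562 at 0.5, 118 at 2 and 1221 over all probe sets. Replicate 3 lay above the others for 173 genes, for 179 to 269 with another array left out (269 without replicate 2), and for 424 at 0.5 and 51 at 2, and below them for 24, for 28 to 74 (74 without replicate 2), and for 194 at 0.5 and 1 at 2. Replicate 2 lay above for 12, 12 to 84 (84 without replicate 3), and 100 at 0.5 and 2 at 2, and below for 12, 13 to 39 (39 without replicate 3), and 97 at 0.5 and 4 at 2. Replicates 1 and 4 stood apart for 1 gene, for 1 to 81 with an array left out (73 without replicate 1 and 81 without replicate 4), for 69 when averaged, 50 at 0.5, and 0 at 2, with the mean of a gene's probe sets and without the dimmest probe sets. Leaving out an array leaves fewer arrays to exceed, which raises such counts by construction. Lists with a median range over 1 numbered 3, 5 without the dimmest probe sets, and 0 to 3 with an array left out (0 without replicate 3). Of the 30 brightest genes 29 to 30 were shared when an array was left out, with 17 ribosomal genes each time and 4 to 5 of progesterone synthesis or cholesterol supply, and of the 15 most variable 4 to 15 were shared (4 without replicate 3). Of the 96 named genes past a range of 1, 48 were still past it without replicate 3. The bacterial trp probe sets, at 3.64 to 4.04, give a background level, and differences of genes near it are not measured in full.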
